A study of Mus musculus with 2 samples.

Results

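The miR-99/100 and miR-125 families are described here by 5 mature miRNAs, mmu-miR-99a, mmu-miR-99b, mmu-miR-100, mmu-miR-125a-5p and mmu-miR-125b-5p (written below without the mouse prefix), taken by name from the 1080 miRNAs of a mouse miRNA array. They were read by 10 of its 2780 miRNA probes, 2 probes for each miRNA. The samples were 2 pools of total RNA, each from 40 ICR mouse embryos (ICR is an outbred stock), the earlier one collected on embryonic day E10.5 and the later one on E11.5. Both came from the midline portion of the mandibular arch, which gives rise to the tongue, and per the series description muscle regulatory genes become active there between these stages. The labels name no treatment or genetic change. Each pool was labelled with the dye Cy3 and hybridised to 1 array, so no difference between the stages has a replicate check, none was tested, and every value describes these 2 pools. In pooled tissue, a change in the number of cells that make a miRNA and a change in its amount per cell cannot be told apart.

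A mature miRNA guides a silencing complex to messenger RNAs, mainly through its seed, the bases near its 5′ end. The miR-125 family is the vertebrate counterpart of lin-4, a miRNA first known from the timing of worm development, and miR-125b represses Lin28 and, in myoblasts, Igf2. The miR-99/100 family is known for repressing Mtor, a kinase of growth control. In mammals, genes of both families lie together with a let-7 gene in clusters, and let-7 itself is a miRNA of differentiating tissues.

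The mature sequences show how the families divide. They are RefSeq's (GRCm38.p6), written 5′ to 3′ with the seed, bases 2 to 8, in capitals. All 5 members were matched, and the let-7 partner of each cluster follows them.
miR-99a: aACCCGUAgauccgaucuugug
miR-100: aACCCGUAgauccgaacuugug
miR-99b: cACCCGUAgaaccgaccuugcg
miR-125a-5p: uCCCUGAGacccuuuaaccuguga
miR-125b-5p: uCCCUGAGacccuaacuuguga
let-7c (beside miR-99a): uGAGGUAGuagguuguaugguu
let-7a (beside miR-100): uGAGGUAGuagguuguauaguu
let-7e (beside miR-99b): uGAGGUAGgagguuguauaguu
Counted from the 5′ end, miR-99a and miR-100 differed by 1 substitution, U16A (the base of miR-99a first). miR-99a and miR-99b differed by 4, A1C, U11A, U16C and U21C. None of these lies in the seed. miR-125a-5p and miR-125b-5p shared their first 13 bases and differed after them. The members with the same seed are thus separated by an array only through bases outside it.

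All 10 probes were exact complements of the 3′ part of their miRNA. The longest probe of each miR-99/100 member is shown, written 5′ to 3′ as deposited, with capitals at the letters that pair with positions 11, 16 and 21, where these miRNAs differ.
miR-99a probe: cAcaagAtcggAtctacgg
miR-100 probe: cAcaagTtcggAtctacgg
miR-99b probe: cGcaagGtcggTtcta
The miR-99a and miR-100 probes each had 1 mismatch to the other miRNA, while the miR-99b probes had 3 mismatches to either. Of the other mature miRNAs in the RefSeq table, only miR-10a-5p and miR-10b-5p came within 3 mismatches of a miR-99/100 probe. None came that close to a miR-125 probe. These counts allow no gaps, so they overstate the distance of miR-125a-5p and miR-125b-5p, which differ in length and share their first 13 and last 5 bases. Whether the miR-125 probes read each other's miRNA was not tested. How far miR-99a and miR-100 are read by each other's probe was not tested.

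The members come from 3 clusters, each with a miR-99/100 gene, a let-7 gene and a miR-125 gene on the plus strand. Positions are those of the longest probe's target in mm9, the build of the files. On chromosome 16, miR-99a (chr16:77599189-77599206) lies 732 bases before let-7c and 47339 bases before a miR-125b-5p site (chr16:77646529-77646545), measured between 3′ ends. On chromosome 9, miR-100 (chr9:41339524-41339541) lies 5295 bases before let-7a and 50503 bases before the other miR-125b-5p site (chr9:41390028-41390044). This cluster is within the noncoding RNA gene Mir100hg in the RefSeq gene table. On chromosome 17, miR-99b (chr17:17967165-17967179) lies 172 bases before let-7e and 625 bases before miR-125a-5p (chr17:17967787-17967804). All of these lie within the protein-coding gene Spaca6. For the probes of miR-99a, miR-99b, miR-100 and miR-125a-5p the files list a target 1 base shorter than the probe, for a reason they do not give. miR-125b-5p has identical copies on chromosomes 9 and 16, which the array cannot separate.

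All 5 members were detected at both stages, where a probe counts as detected if the scanner software marked 50% or more of its spots as well above background. Of the 1080 miRNAs, the E10.5 array detected 144 and the E11.5 array 199, and 137 had a probe detected at both. The E11.5 array was the brighter one, and over these 137 the median unscaled log2 difference was 1.24. Intensities were therefore also divided by the 75th percentile of the probes detected on both arrays (an intensity of 194 on the E10.5 array and 482 on the E11.5 array), which took 1.31 off each log2 difference. A scaled difference, E11.5 minus E10.5, describes a level relative to the other detected miRNAs. Negative control spots averaged 7.87 ± 6.16 at E10.5 and 5.88 ± 5.60 at E11.5 (SD over 1000 spots each), and no miRNA spot was saturated.

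miR-99a had the highest difference of the members. Its 19-base probe gave an unscaled intensity of 62.6 ± 4.58 (SD over 20 spots) at E10.5 and 274 ± 14.1 (20 spots) at E11.5. The spots ran from 55.7 to 70.6 at the first stage and from 250 to 299 at the second, with no overlap. The scaled intensity was 0.323 at E10.5 and 0.569 at E11.5. Here too the spots of the stages did not overlap. The scaled log2 difference was 0.81 ± 0.029 (SE over spots, as for all differences below), a 1.76-fold higher level, and the unscaled ratio was 4.37. The 18-base probe gave 19.3 ± 5.85 at E10.5, with 0 of 19 spots well above background, and 89.4 ± 6.54 at E11.5, with all 18 spots above it. It therefore gives only a bound, at least 1.16-fold higher at E11.5 as scaled and at least 2.89-fold unscaled. A bound is taken against the dimmest detected probe of the array, at 30.9 for E10.5.

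miR-100, which differs from miR-99a by a single base, was higher by less. Its 19-base probe gave 51.4 ± 7.22 at E10.5 and 168 ± 11.04 at E11.5 (20 spots each), an unscaled ratio of 3.28. The unscaled spots did not overlap (39.7 to 64.4 against 153 to 196), while the scaled ones did (0.205 to 0.333 against 0.318 to 0.408). The scaled difference was 0.40 ± 0.050, or 1.32-fold. This value rests on 1 probe, because the 18-base probe had 2 of 19 spots well above background at E10.5 (24.4 ± 5.01) against all 20 at E11.5 (68.8 ± 6.37). That probe had no bound above 1-fold as scaled, and one of 2.23-fold unscaled. The E10.5 signals of both miR-99a and miR-100 thus lay close to the detection limit.

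miR-99b, the member of the same seed family encoded on chromosome 17, was on the other side of 0. Its 16-base probe gave 220 ± 8.29 (20 spots) at E10.5 and 451 ± 24.4 (19 spots) at E11.5. Its 15-base probe gave 92.4 ± 6.33 (18 spots) and 187 ± 15.6 (20 spots). The unscaled ratios of 2.05 and 2.02 were the smallest of the member probes, and no unscaled spots overlapped. After scaling the order turned, with spots from 1.07 to 1.21 at E10.5 and from 0.845 to 1.02 at E11.5 for the 16-base probe, and from 0.435 to 0.548 and from 0.326 to 0.430 for the 15-base one. The probes gave differences of -0.28 ± 0.022 and -0.30 ± 0.036, and the miRNA was at -0.29 ± 0.021. miR-99b was thus brighter at E11.5 on the array as scanned and lower relative to the other detected miRNAs.

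miR-125b-5p was higher at E11.5 by either reading. Its 17-base probe gave 2096 ± 65.6 (19 spots) at E10.5 and 6524 ± 237 (16 spots) at E11.5, with spots from 2010 to 2212 and from 6052 to 6945. Its 16-base probe gave 188 ± 7.40 (19 spots) and 596 ± 20.6 (18 spots). The probes gave similar values, with unscaled ratios of 3.11 and 3.16 and scaled differences of 0.32 ± 0.017 and 0.35 ± 0.018. Spots of the stages did not overlap for either probe, unscaled or scaled. The scaled difference of the miRNA was 0.34 ± 0.012, or 1.26-fold.

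miR-125a-5p was nearest to 0. Its 19-base probe gave 357 ± 20.6 (19 spots) at E10.5 and 842 ± 37.8 (20 spots) at E11.5, and its 18-base probe 99.4 ± 9.002 and 223 ± 21.8 (20 spots each). The unscaled ratios were 2.36 and 2.24, with no overlap of spots. After scaling the spots overlapped for both probes, from 1.66 to 2.03 against 1.61 to 1.90 and from 0.424 to 0.591 against 0.376 to 0.554. The probes gave -0.08 ± 0.024 and -0.15 ± 0.043, and the miRNA -0.11 ± 0.025. Across the members, then, the unscaled spots of all 10 probes lay higher at E11.5 without overlap, and the scaled spots did not overlap for 6 of the 10. The 18-base probes of miR-99a and miR-100 were not detected at E10.5, so 8 of the 10 are among the 218 probes detected on both arrays. Of these 8, all were higher at E11.5 without overlap before scaling, as were 176 of the 218 (80.7%). After scaling 5 of the 8 did not overlap, in either direction, against 57.3% of the 218. By direction, 3 of the 8 were higher at E11.5 without overlap, against 19.3% of the 218, and 2 were lower, against 38.1%. Spots without overlap were thus common over all detected probes on both scales.

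**Figure D1:**
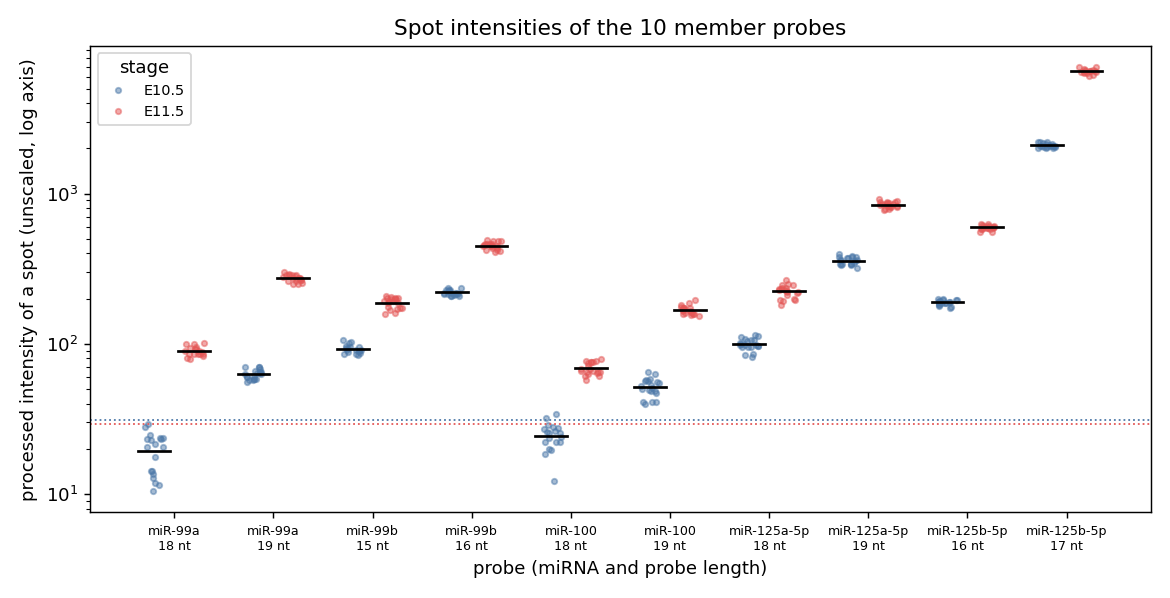
Unscaled processed intensity (log axis) of each spot of the 10 member probes, at E10.5 (blue) and E11.5 (red); points are spots without an outlier mark, black bars their mean, and dotted lines the dimmest detected probe of each array. Every probe is brighter at E11.5, and the 18-base probes of miR-99a and miR-100 lie below the dotted line at E10.5 on average (19.3 and 24.4).

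As scaled, 3 of the 5 members were higher at E11.5, against 65 of the 137 miRNAs measured at both stages (47.4%), and the median difference was 0.34 against -0.07. None of the members reached 2-fold in either direction. Over all 137, 3.65% were at least 2-fold higher and 13.9% at least 2-fold lower. With no scaling all 5 members were higher at E11.5, as were 90.5% of the 137, and all 5 were at least 2-fold higher, as were 64.2%, and the members' median of 1.65 stood beside 1.24 over all. From the highest scaled difference down, miR-99a ranked 7 of 137, miR-100 ranked 25, miR-125b-5p 32, miR-125a-5p 72 and miR-99b 87.

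**Figure D2:**
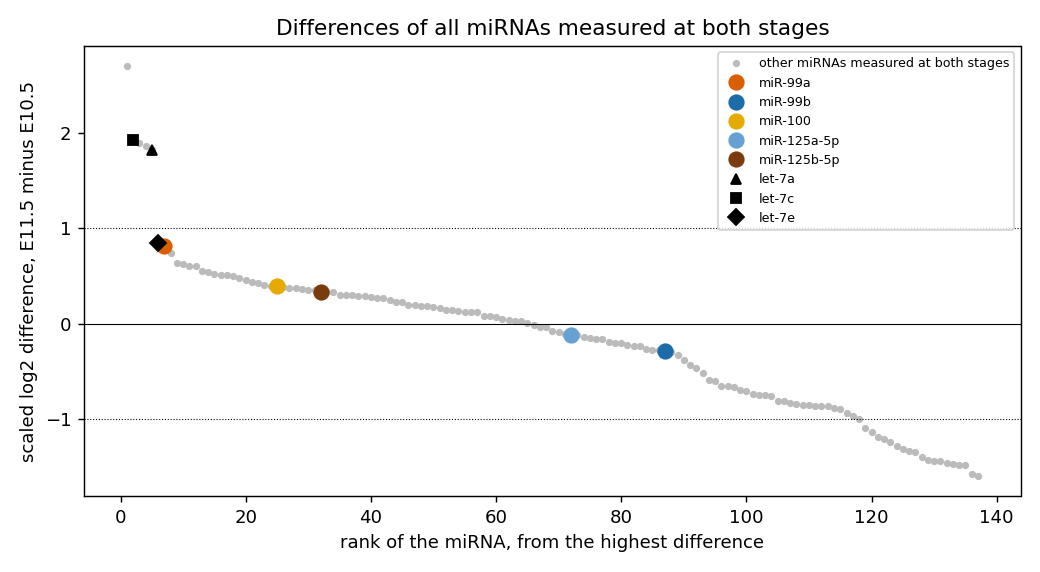
Scaled log2 difference (E11.5 minus E10.5) of each of the 137 miRNAs measured at both stages, ranked from the highest; coloured points are the members, black symbols their let-7 partners, grey points the other miRNAs, and dotted lines mark 2-fold. miR-99a (rank 7) follows let-7e (rank 6), and miR-99b (rank 87) is the lowest member.

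The scaling shifts every miRNA by the same amount, so differences between members do not depend on it. Spot SEs, which cover noise within an array only, were small beside the spread over all 137 miRNAs (quartiles -0.74 and 0.30). A gap of more than 2 spot SEs was therefore a low bar for any pair of miRNAs. The smallest gap was between miR-100 and miR-125b-5p, which share the cluster on chromosome 9, at 0.06 ± 0.051. Quantile normalization also put them close (0.48 against 0.50). They stood further apart with normexp background correction (-0.10 against 0.42) and in the authors' deposited table (0.36 against 0.90). miR-125b-5p is encoded on chromosome 16 as well, and the miR-100 value rests on 1 probe. The widest gap was within a seed family: miR-99a exceeded miR-99b by 1.102 ± 0.036 and miR-100 by 0.42 ± 0.058. In the other family, miR-125a-5p was below miR-125b-5p by 0.45 (a difference of -0.45 ± 0.027). Family medians were 0.40 for miR-99/100 and 0.11 for miR-125.

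Both members of the chromosome 17 cluster, miR-99b and miR-125a-5p, were below the other 3, with a mean of -0.20 against 0.52, and they differed from each other by 0.17 (miR-99b minus miR-125a-5p, -0.17 ± 0.032). This grouping was chosen after the values were seen. Of the 13 alternatives, 5 cannot move the gap between the means, because they shift all members alike or leave their probes as they were. It stood at -0.72 under these, as under the main processing. Under the other 8 both chromosome 17 members were also below the other 3, with the gap running from -0.43 with normexp background correction to -1.07 with the authors' deposited table. With normexp the nearest members of the groups were almost level, miR-125a-5p at -0.12 and miR-100 at -0.10.

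In each cluster the let-7 miRNA had a higher difference than the members beside it, and here too chromosome 17 had the lowest value. let-7c was at 1.93 ± 0.031 and let-7a at 1.83 ± 0.018, while let-7e, from chromosome 17, was at 0.85 ± 0.011, near miR-99a. High differences were not particular to the let-7 miRNAs of these clusters. let-7d, let-7g and let-7f, which are not partners here, were at 2.70, 1.90 and 1.86. On chromosome 17, let-7e exceeded miR-99b by 1.13 ± 0.024 and miR-125a-5p by 0.96 ± 0.027. On chromosome 16, let-7c exceeded miR-99a by 1.11 ± 0.043 and miR-125b-5p by 1.59 ± 0.034. On chromosome 9, let-7a exceeded miR-100 by 1.43 ± 0.053 and miR-125b-5p by 1.49 ± 0.022. Against the mean of the members of its cluster, the let-7 excess was 1.05 ± 0.020 on chromosome 17, 1.35 ± 0.035 on chromosome 16 and 1.46 ± 0.032 on chromosome 9. That order turned with normexp (0.87 on chromosome 16 against 1.11 on chromosome 17) and with the authors' deposited table (0.77 and 1.16 on chromosomes 16 and 9 against 1.24). The let-7c and let-7a probes each match a further site outside these clusters (chromosomes 15 and 13). The let-7a and let-7e probes differ from each other's miRNA by 1 base, and so do let-7a and let-7c probes. The let-7a probes also have 1 mismatch to let-7d and to let-7f, and the let-7c probes 1 to let-7b. How much of the let-7c and let-7a signal comes from the clusters was not tested.

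**Figure D3:**
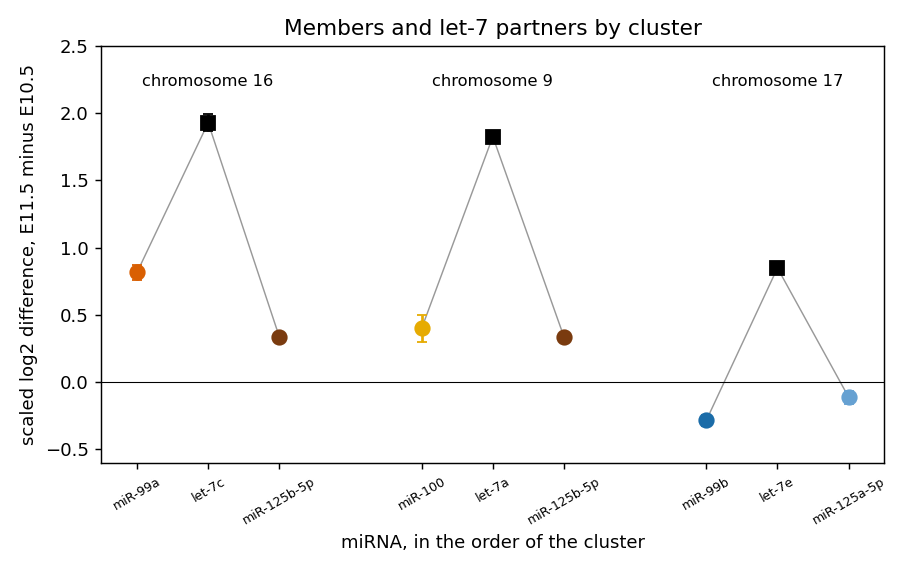
Scaled log2 difference (E11.5 minus E10.5) of the members (circles) and let-7 partners (squares) by cluster, with bars of 2 spot SEs; miR-125b-5p is drawn in both clusters that encode it. The let-7 miRNA is highest in each cluster, and the members on chromosome 17 (-0.29 and -0.11) lie below those on chromosomes 16 and 9.

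The other arm of each hairpin gave little or no signal. 6 such arms were on the array with 20 probes (miR-99a*, miR-99b*, miR-100*, miR-125a-3p, miR-125b-1-3p and miR-125b-2-3p). On the E10.5 array none of these probes was detected, with means from -5.09 to 18.7, and on the later array 1 was, a 15-base probe of miR-99b*. It gave 18.7 ± 7.35 at E10.5, with 0 of 10 spots well above background, and 32.3 ± 7.95 at E11.5, with 5 of 10, and the spots overlapped. It had no bound above 1-fold as scaled and one of 1.05-fold unscaled. The 4 other arms of the let-7 partners (let-7a-1*, let-7a-2*, let-7c-1* and let-7e*) were not detected at either stage. The separate miR-125b passenger arms, which would tell the copies on chromosomes 9 and 16 apart, were thus not measurable here.

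Among the relatives outside the member list, miR-351 has the seed of miR-125 (CCCUGAG) and lies in an X-linked cluster with miR-322 and miR-503. 1 of its 4 probes, of 16 bases, was detected at E11.5 only, at 40.4 ± 6.21 (10 of 10 spots) against 10.1 ± 5.01 at E10.5 (0 of 10). It had no bound above 1-fold as scaled and one of 1.31-fold unscaled. miR-10a and miR-10b, encoded in the Hox clusters and close in sequence to miR-100, gave no probe well above background. Their probe means ran from 0.651 to 4.68 at E10.5 and from 1.95 to 6.88 at E11.5, so the miRNAs nearest in sequence outside the family gave almost no signal on their own probes. Of the mature miRNAs in the RefSeq table, 3 carry the miR-99/100 seed and 5 the miR-125 seed, of which miR-6367 and miR-6394 were not found on this array by name.

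The miRNAs with differences most like the family medians were taken by the smallest gap, over these 2 arrays only. For miR-99/100 they were miR-495 (0.40 ± 0.035), miR-23a (0.39 ± 0.035) and miR-410 (0.41 ± 0.014). For miR-125 they were miR-541 (0.12 ± 0.030), miR-140* (0.13 ± 0.041) and miR-543 (0.13 ± 0.034). With 2 arrays such likeness is a single number per miRNA and describes size only.

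Cell type miRNAs differed between the pools as well. Of the mesenchymal list, all 5 on the array were detected at both stages, with a median scaled difference of 0.08 and 4 of 5 higher. Of the 7 epithelial miRNAs, the earlier array detected 4 and the later one 5, and the 4 measured at both had differences from -1.59 to -0.85. The 4 striated muscle miRNAs were detected at E11.5 only. The summed intensity of each list's brightest probes, before scaling, went from 6832 to 18420 for mesenchyme, from 718 to 792 for epithelium, from 19.2 to 671 for striated muscle, from 55.6 to 216 for the neural list, from 329 to 461 for endothelium, from 93.1 to 152 for the erythroid list and from 40.3 to 58.6 for leukocytes. As scaled, the 1 miRNA measured at both stages was at -0.81 for endothelium, at -0.60 for the erythroid list and at 0.50 for the neural list. The neural miR-9 and miR-124 and the leukocyte miR-142-3p, miR-142-5p, miR-150 and miR-155 were not detected at either stage. The E10.5 sums for striated muscle (19.2) and leukocytes (40.3) come only from undetected probes. At E11.5, 1 of the 5 leukocyte miRNAs was detected. The part of these shifts in the members' differences was not tested.

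Processing moved the size of the members' differences more than their order. Background correction by normexp fits another background and adds an offset of 50 to every intensity before scaling, and the median over all 137 miRNAs was then -0.28. Under it miR-99a was at 0.31 and miR-100 at -0.10, the only setting with miR-100 below 0, while miR-125b-5p was at 0.42 and led the members. The authors' deposited table, whose normalization is not stated, gave 1.21 for miR-99a (30.9 to 71.4), 0.90 for miR-125b-5p (813 to 1513), 0.36 for miR-100 (36.6 to 47.0), -0.07 for miR-125a-5p (221 to 211) and -0.43 for miR-99b (165 to 123). Counting the main processing and the 5 alternatives that cannot change the order, miR-99a was the highest member in 13 of the 14 settings and miR-99b the lowest in all 14.

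**Figure D4:**
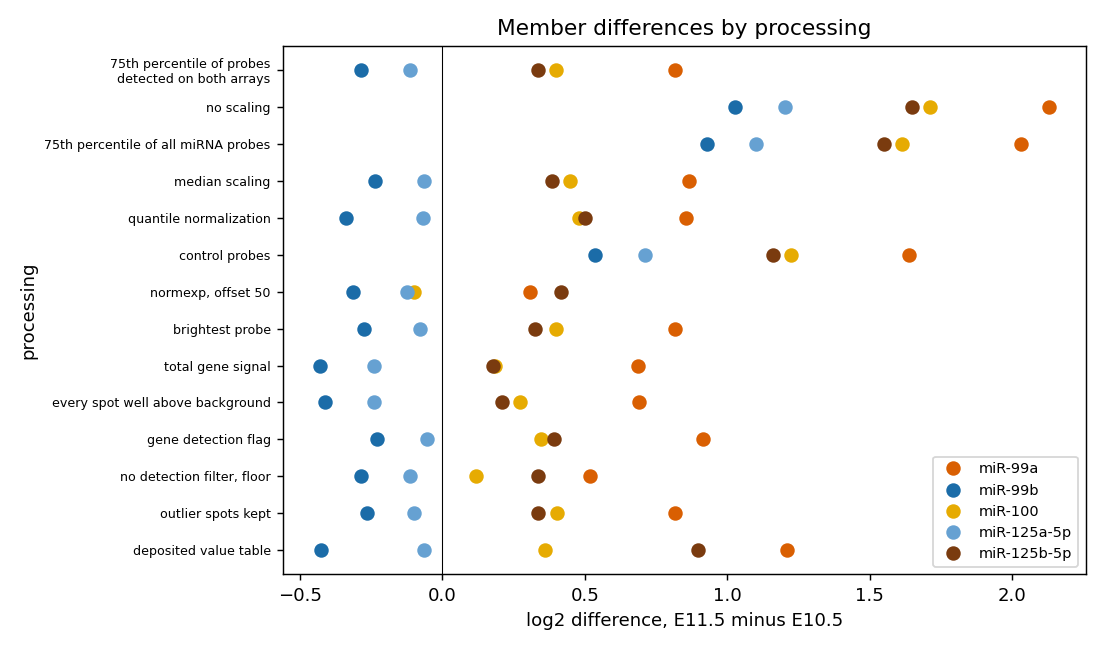
Log2 difference (E11.5 minus E10.5) of each member under each processing, with the reported scaling in the top row. miR-99b is lowest in every row, and miR-99a highest in every row but normexp. With no scaling, control probes or the 75th percentile of all probes every member is above 0. So are 90.5%, 77.4% and 89.1% of all 137 miRNAs, in the same order of settings.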

How the data were processed

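Per the file headers, the deposited intensity of each spot was made with Agilent Feature Extraction 10.7.1.1 (design 031184, build mm9), background-subtracted and spatially detrended, with no normalization between arrays. The submitters' processing notes name version 9.5.1.1. The other deposited file gives 1 intensity per miRNA on a linear scale, with 0.1 at its lowest (column medians 0.1 and 0.1). Its highest value was 3255.83 in both columns. Across miRNAs above that lowest value its order is nearly that of Feature Extraction's total gene signal (Spearman's rho 0.992 and 0.997). The slope of its log2 on that signal's log2 was 1.02 and 1.11, which puts it on a linear scale of the same direction, while its normalization and centring are not given in the sources used here.

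Spots with an outlier flag were left out (7 of the 200 member spots on the E10.5 array, 9 on the other) and the rest averaged per probe. Intensities were scaled, log2 was taken, and the difference was averaged over those probes of a miRNA that both arrays detected. The SE comes from spots within an array, and the number of arrays limits the precision. Flags of 0 or 1 per spot (other columns of the deposited files) gave detection. The members and lists were chosen with earlier results of these data known. The text names the members, their other arms, let-7 partners and relatives, and the 3 miRNAs nearest each family's median. Further let-7 miRNAs are named for comparison with the partners. The scaling and averaging steps were run on simulated arrays with known changes and the same detection calls on both. Differences were checked relative to the unchanged miRNAs, so neither detection nor the choice of scaling was tested. The 13 alternatives covered scaling, background, probes, detection, spots and the deposited table. Python 3.11.15, numpy 2.4.6, pandas 2.3.3, matplotlib 3.10.9, R 4.3.3 and limma 3.58.1 were used.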

Additional observations from a re-analysis of the deposited data

How the results depend on the processing

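The side of 0 for miR-99b and miR-125a-5p rests on the scaling. With no scaling miR-99a, miR-99b, miR-100, miR-125a-5p and miR-125b-5p were at 2.13, 1.03, 1.71, 1.20 and 1.65, with 5 members higher, a median of 1.65 and family medians of 1.71 (miR-99/100) and 1.42 (miR-125). With the 75th percentile of all miRNA probes they were at 2.03, 0.93, 1.61, 1.102 and 1.55, with 5 higher, a median of 1.55 and family medians of 1.61 and 1.33. With control probes they were at 1.64, 0.54, 1.22, 0.71 and 1.16, with 5 higher, a median of 1.16 and family medians of 1.22 and 0.93. Under these 3 scalings 90.5%, 89.1% and 77.4% of all 137 miRNAs were above 0, with medians of 1.24, 1.15 and 0.75. miR-99b and miR-125a-5p were below the median over all miRNAs in each. Of the 137, 88, 80 and 49 were at least 2-fold higher, and 0 were 2-fold lower in each. Each of these scalings is a constant shift by construction, and the gaps between members were the same under them. With normexp miR-99a was at 0.31, miR-100 at -0.10 and miR-125b-5p at 0.42, the median of the members and that of miR-99/100 were both -0.10, and the let-7c excess on chromosome 16 was 0.87. With the deposited table miR-99a was at 1.21, miR-99b at -0.43, miR-125b-5p at 0.90 and the miR-125 median at 0.42. The let-7 excess there was 0.77 on chromosome 16 and 1.16 on chromosome 9. Of the 169 miRNAs measured there, 9 were at least 2-fold higher and 28 lower. With the gene detection flag, also with 169 measured, these counts were 9 and 26. The cause of the shifts with that table was not tested. The total gene signal gave -0.43 for miR-99b, 0.18 for miR-125b-5p and -0.031 for the miR-125 median, and detection by every spot gave 0.21 for miR-125b-5p and -0.015 for that median. Quantile normalization gave 0.50 for miR-125b-5p. With no detection filter and a floor, which counts the dim probes of miR-99a and miR-100, miR-99a was at 0.52, miR-100 and the miR-99/100 median at 0.12, and 937 of all 1080 miRNAs were 2-fold lower, since undetected miRNAs sit at floors that the scaling set apart. Median scaling, the brightest probe and keeping outlier spots moved none of these values by more than the spread between spots. No paired analysis was possible because each stage has 1 array. Signal over background limits the E10.5 values of miR-99a and miR-100, each of which rests on 1 probe, and noise between arrays was not measured.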
